A study of Mus musculus with 66 samples.

Results

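Mouse testes at day 56 after birth were compared with testes at days 30 and 35, the span between the end of the first wave of spermatogenesis and full maturity. The comparison takes in 18 of the 66 array samples of the series, 6 on each of 3 array types (A, B and C). On each type 2 numbered samples came from day 56, 2 from day 30 and 2 from day 35. The series itself follows the testis over 11 ages from birth to day 56, with total RNA of whole testes from BL/6-129 mice, and all groups share this background. No treatment is given in the labels. Whether both samples of a day came from different animals, or from pools, is not given in the labels. In the main fit the p-values rest on the spread between same-day samples over all 11 ages, which may be technical. Each type carries its own probe sets, and the deposited values are 1 scaled signal per probe set and array. A gene was represented by its brightest probe set, and 13472 genes had a probe set that reached a signal of 50 on 2 or more of its type's 22 arrays.

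Spermatogenesis begins soon after birth in the mouse, and the first germ cells pass through meiosis and become elongated spermatids together, as a wave. Later waves follow in succession, so that the adult tubule holds every germ cell stage at once, and spermatids build the acrosome and flagellum and replace histones with transition proteins and then protamines. Over the same weeks the adult Leydig cells, which make testosterone in the interstitium between the tubules, complete their maturation, while Sertoli cells have stopped dividing. In whole-testis RNA, fewer cells of a type and less RNA per cell cannot be told apart. The authors scaled all arrays to 1 common mean, so each value is relative to all signals of its array.

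At day 56 most genes lay close to their level at days 30 and 35, and 1 gene passed the test. Differences are given as day 56 minus the mean of days 30 and 35 on the log2(signal + 16) scale, which understates the differences of dim genes, ± SE. The test was limma's moderated test with the spread shared over all 22 arrays of a type, and a gene passed at a Benjamini-Hochberg adjusted p under 0.05 with a difference of at least 2-fold. Dnah8 was the only one of 13472 genes to pass in this fit (0.00742%). A further 11 genes were tied just outside, at an adjusted p of 0.0515, 5 of them higher and 6 lower at day 56. At an unadjusted p under 0.05 there were 682 genes higher (5.06%) and 847 lower (6.29%). Both day 56 arrays lay above all 4 arrays of days 30 and 35 for 2218 genes (16.5%) and below all 4 for 2051 genes (15.2%). The median difference of all genes was 0.01, and 115 genes were at least 2-fold higher and 217 at least 2-fold lower.

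The number that passed depended on which arrays gave the estimate of the spread. In a fit of the 6 arrays of days 30, 35 and 56 alone, with 3 residual degrees of freedom in place of 11, 54 genes passed as higher (0.401%) and 126 as lower (0.935%), Dnah8 among them, while a fit of the 12 arrays of days 14 to 56 passed 0 genes, with 1546 at an unadjusted p under 0.05. Values from the fit of the 6 arrays are marked as such in what follows. The step from days 18 and 20 to days 30 and 35, tested in the same way with 22 arrays, passed 1459 genes (10.8%), 923 of them higher and 536 lower at days 30 and 35.

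Within the window, the limma fit of 22 arrays passed 0 genes between day 56 and day 30, where 1199 had an unadjusted p under 0.05, and 0 between day 56 and day 35, where 1235 did. Between day 35 and day 30 it also passed 0 genes, with 303 at an unadjusted p under 0.05. These 3 comparisons share samples. The median size of the difference, sign aside, was 0.26 for day 56 against day 30, 0.27 for day 56 against day 35 and 0.17 for day 35 against day 30.

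**Figure D1:**
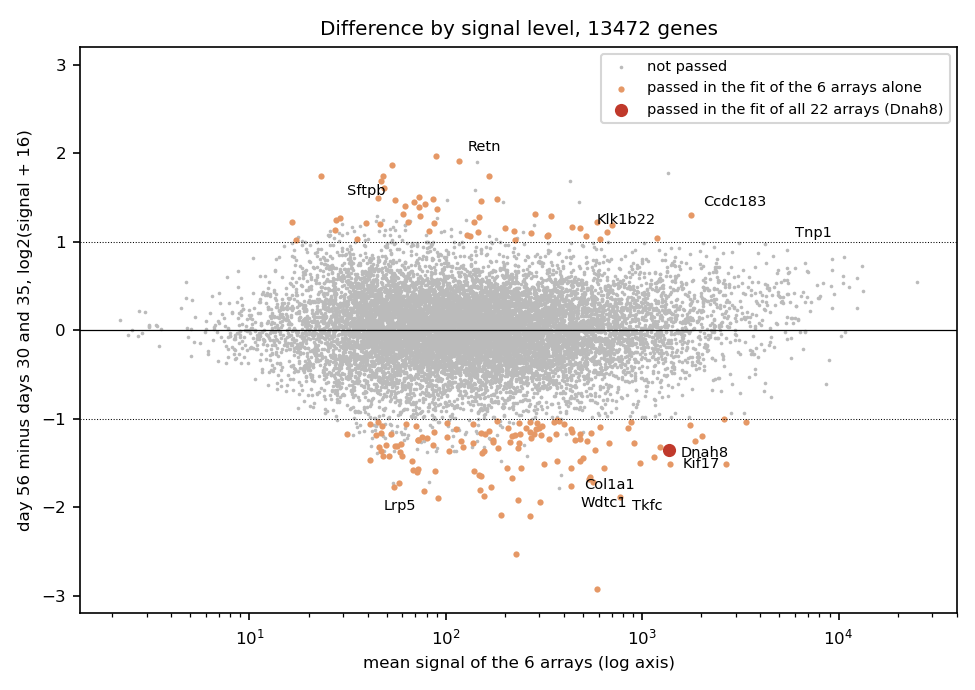
Difference of day 56 from days 30 and 35 on the log2(signal + 16) scale (vertical axis) against the mean signal of the 6 arrays (horizontal log axis) for 13472 genes. Dotted lines mark a 2-fold difference, orange points the 180 genes that passed in the fit of the 6 arrays alone, and the red point Dnah8, which also passed in the fit of all 22 arrays.

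On every array type the day 56 arrays correlated less with the arrays of days 30 and 35 than those did among themselves. On array type A the correlation across probe sets was 0.955 between the day 56 samples and 0.968 to 0.976 among the 4 samples of days 30 and 35. Day 56 sample 1 correlated at 0.932 to 0.936 with those 4 samples, and day 56 sample 2 at 0.951 to 0.956. On type B the correlation was 0.916 between the day 56 samples and 0.925 to 0.960 among the other 4, with day 56 sample 1 at 0.893 to 0.924 and sample 2 at 0.901 to 0.907 to those. On type C it was 0.931 between the day 56 samples and 0.933 to 0.941 among the other 4. There, day 56 sample 1 was at 0.912 to 0.923 and sample 2 at 0.915 to 0.927 to those. Only on type C were the day 56 samples nearer to each other than to any of the other 4. Without day 56 sample 1 the fit of 22 arrays passed 2 genes, and without day 56 sample 2 it passed 26. Control probe sets differed with the day as well. The antisense-strand probe sets for actin and Gapdh averaged a signal of 80.4 ± 12.1 at day 56 (SD, n = 2) and 43.8 ± 6.22 at days 30 and 35 (SD, n = 4) on type A. On type B the averages were 141 ± 20.2 at day 56 and 78.96 ± 8.19 at days 30 and 35, and on type C 171 ± 20.1 at day 56 and 99.2 ± 11.8 at days 30 and 35. The ratio of 3′ to 5′ Gapdh signal, a common check of RNA integrity, was 0.845 to 0.877 at day 56 and 0.901 to 0.989 at days 30 and 35 on type A, and the day 56 arrays were lower on types B and C too. Other controls went the other way: the ratio of 3′ to middle actin signal on type A was 1.92 to 1.94 at day 56 and 1.45 to 1.64 at days 30 and 35. On types B and C this ratio overlapped between the groups. The middle actin signal was lower in both day 56 arrays than in the other 4 on every type. Its log2 difference was -0.73 on A, -0.74 on B and -0.92 on C. The 3′ signal of 18S rRNA on type A was 284 to 474 at day 56 and 157 to 239.5 at days 30 and 35, and both day 56 arrays were above the other 4 on types B and C as well. Their part in the differences below was not tested.

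**Figure D2:**
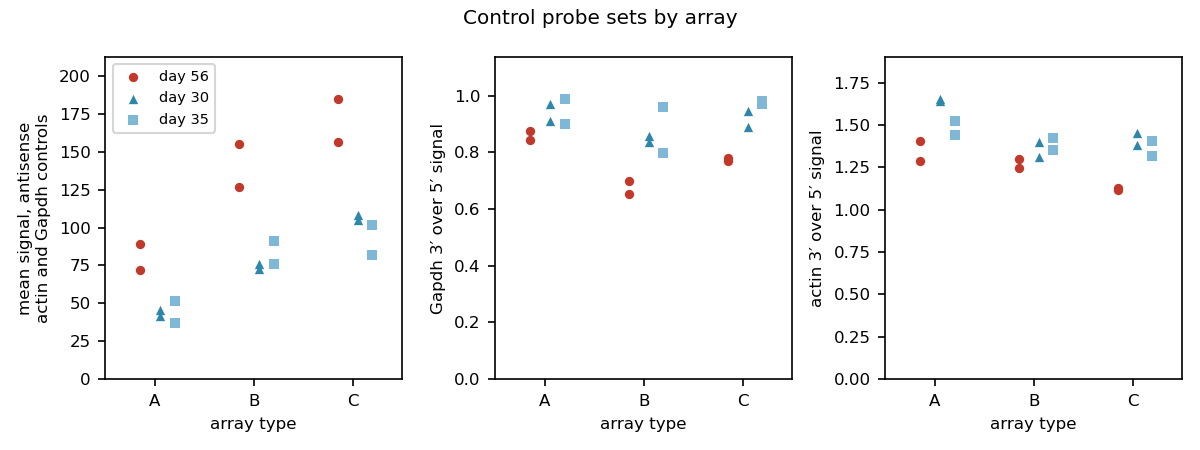
Control probe sets on each array of types A, B and C (horizontal axis), with day 56 in red, day 30 in dark blue and day 35 in light blue. The left panel shows the mean signal of the antisense actin and Gapdh probe sets, the middle and right panels the ratio of 3′ to 5′ signal for Gapdh and actin; the 2 day 56 arrays lie above the other 4 in the left panel and below them in the other panels on all 3 types.

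Dnah8, on chromosome 17, encodes a heavy chain of the outer dynein arms of the sperm flagellum. Its signal was 573 and 742 in the day 56 samples, against 1350 and 1739 in the day 30 samples and 1689 and 2088 in the day 35 samples. Both day 56 samples lay below every sample of days 30 and 35. The difference was -1.36 ± 0.20 (95% interval -1.77 to -0.94, adjusted p = 0.0382 in limma), 2.56-fold lower on the shifted scale. The adjusted p was 0.00639 in the fit of the 6 arrays. The call was lost without day 56 sample 1 (difference -1.18, adjusted p = 0.196), day 30 sample 1 (-1.45, 0.0727), day 30 sample 2 (-1.27, 0.165), day 35 sample 1 (-1.43, 0.0598) or day 35 sample 2 (-1.28, 0.113). It was also lost with a pseudocount of 1 (-1.38, adjusted p = 0.135), with 12 arrays (-1.36, 0.105) and with the mean probe set (-0.99, under 2-fold). A dimmer probe set for Dnah8 on the same array type gave a difference of -0.62 ± 0.25. Over the whole series the mean signal of Dnah8 was 6.80 at day 10, 122 at day 14, 991 at day 18, 1299 at day 20, 1545 at day 30, 1889 at day 35 and 658 at day 56.

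Beside Dnah8, the 14 further named genes that were lower at day 56 and the 15 that were higher did not pass in the fit of 22 arrays. They were chosen as the genes of at least 2-fold with the smallest p in each direction whose day 56 samples both lay on one side of the other 4, so their separation is part of the choice. Of the 15 lower genes, Dnah8 included, 13 passed in the fit of the 6 arrays (against 0.935% of all genes). Of the 15 higher genes 11 did (against 0.401%). That fit uses the same 6 arrays on which the genes were chosen, so these counts are no independent support.

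The brightest of the lower genes after Dnah8 have varied roles. Ttll10, of the tubulin tyrosine ligase-like family, which in this member polyglycylates proteins, had signals of 672 and 555 at day 56, against 1530 and 1478 at day 30 and 1466 and 1733 at day 35. The difference was -1.32 ± 0.24 (adjusted p = 0.0515 in limma, and 0.00409 in the fit of the 6 arrays). The mean signal of Ttll10 lay between 322 and 413 from day 0 to day 20, so that the day 56 samples were above the earlier ages and below days 30 and 35. Wdtc1, a WD40 and TPR repeat protein of a ubiquitin ligase, had 185 and 239.9 at day 56, against 581 and 681 at day 30 and 808 and 883 at day 35 (difference -1.72 ± 0.30, adjusted p = 0.0515). Dyrk1b, a dual-specificity kinase, had 199 and 224 at day 56, against 549 and 544 at day 30 and 687 and 694 at day 35. Its difference was -1.48 ± 0.29 (adjusted p = 0.0605), and 0.00187 was the adjusted p in the fit of the 6 arrays. Tkfc, which phosphorylates dihydroxyacetone and glyceraldehyde, had 204 and 328 at day 56, against 1097 and 823 at day 30 and 865 and 1285 at day 35. With a difference of -1.89 ± 0.37 it had, with Lrp5, one of the largest gaps among the 15 lower genes.

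The remaining lower genes were dimmer. Lrp5, a coreceptor for Wnt ligands, had 8.9 and 40.7 at day 56, against 136.9 and 99.2 at day 30 and 119 and 143 at day 35. Ncapd2, a subunit of the condensin I complex, had 73.8 and 94.8 at day 56, against 224 and 222 at day 30 and 223 and 209 at day 35. Snrpd3, a core protein of spliceosomal particles, had 54.0 and 122 at day 56, against 234 and 195 at day 30 and 241 and 256 at day 35. Ap3s2 (an adaptor complex subunit), Klhl36, Rhpn1, Cep68 (a centrosomal protein), Tbc1d22b and Ak3 (a mitochondrial adenylate kinase) had differences between -1.82 and -1.15, and none of their day 56 signals exceeded 47.0. Several of these genes have other probe sets that gave smaller differences. The second probe set was at -0.32 for Ap3s2, 0.15 for Snrpd3, 0.30 for Cep68 and 0.08 for Ak3.

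Among the genes that were higher at day 56, Ccdc183 was the brightest. This coiled-coil domain gene had 2887 and 2987 at day 56, against 1143 and 956 at day 30 and 1304 and 1349 at day 35. The difference was 1.31 ± 0.27 (adjusted p = 0.0638 in limma, and 0.00358 in the fit of the 6 arrays). Its mean signal did not exceed 13.0 up to day 20. Kif20a, a kinesin of cell division, had 868 and 683 at day 56, against 379.6 and 334 at day 30 and 308 and 326 at day 35 (1.16 ± 0.27), while its second probe set gave 0.28 ± 0.21. Parp1, the poly(ADP-ribose) polymerase of DNA repair, had 265 and 208 at day 56, against 115 and 99.8 at day 30 and 104 and 85.0 at day 35 (1.11 ± 0.22). The probe sets used for Ccdc183, Kif20a and Parp1 carry the suffix of probe sets shared by a gene family, so their signals may not be specific to the gene. Among genes named below, those for Prm1, Fabp9, Hsd3b6, Sox9, Atp5md and Rps20 carry it too.

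The other higher genes had signals under 270 in every sample of days 30, 35 and 56. Sftpb, a lung surfactant protein gene, had 108 and 128 at day 56, against 32.1 and 29.3 at day 30 and 34.9 and 41.8 at day 35 (1.41 ± 0.25, adjusted p = 0.0515). Klf1, a transcription factor of red cell precursors, had 168 and 158 at day 56, against 55.4 and 62.4 at day 30 and 35.1 and 63.8 at day 35 (1.37 ± 0.25). Pecam1, an adhesion molecule of endothelium, had 85.8 and 80.0 at day 56, against 18.1 and 45.6 at day 30 and 20.1 and 29.3 at day 35. Cep83, a centriolar protein of cilium assembly, had 268 and 204 at day 56, against 102 and 89.0 at day 30 and 90.9 and 82.5 at day 35. Ccnb1ip1, a factor of meiotic crossover formation, Nav2, Fermt2 (kindlin-2, an integrin activator), Lrrc75b, Stap2, Npl, Cmya5 and Prss8 had differences between 1.02 and 1.69. The second probe set was at 0.05 for Fermt2, -0.15 for Nav2 and 0.53 for Cep83.

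**Figure D3:**
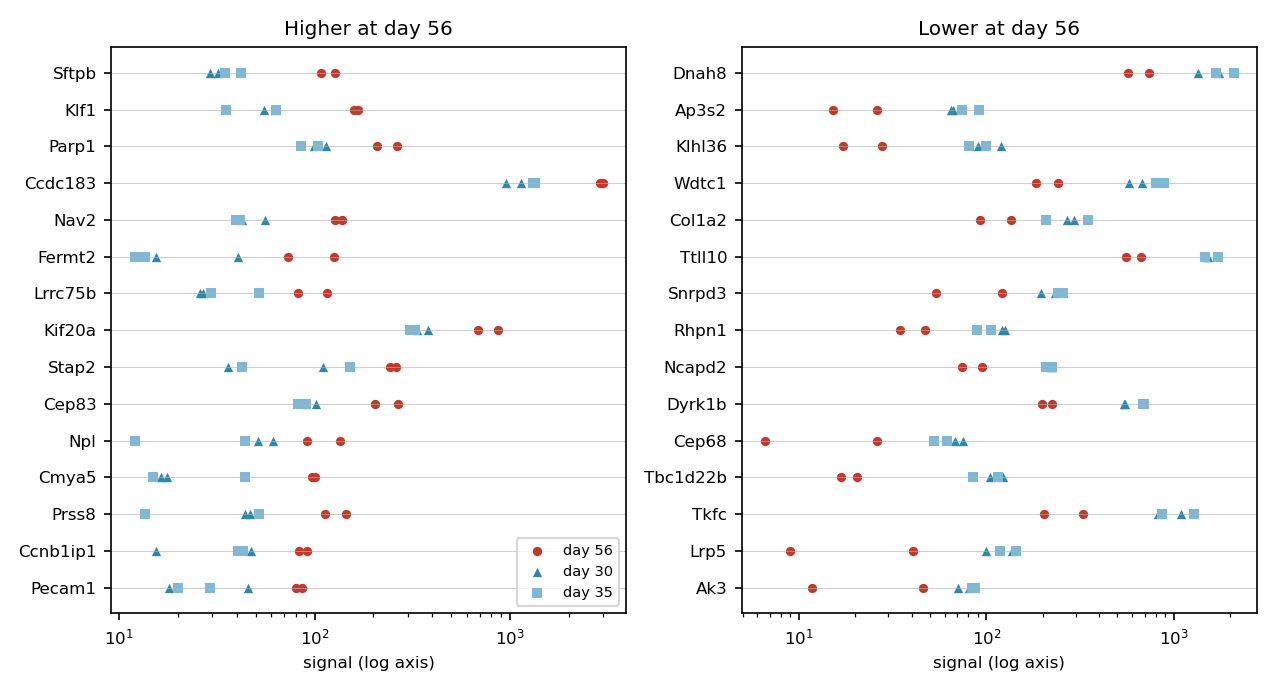
Signals (horizontal log axis) of the 15 named genes that were higher at day 56 (left) and the 15 that were lower (right), with day 56 samples in red, day 30 in dark blue and day 35 in light blue. The genes were chosen so that the 2 red points lie on one side of the 4 blue ones.

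Most genes of late spermatids had higher signals at day 56, but none of those passed the test in either fit. Of 36 measured genes of elongating and condensing spermatids, 0 passed in limma's fit of 22 arrays. In the fit of the 6 arrays 0 passed as higher (against 0.401% of all genes) and 1, Ggn, as lower (against 0.935%). The median difference was 0.38, against 0.01 for all genes, and 28 of the 36 were above 0. At an unadjusted p under 0.05, 7 were higher (19.4%, against 5.06% of all genes) and 2 lower (5.56%, against 6.29%). In 16 of them both day 56 samples lay above all 4 others, and in 2 below. Over all genes the shares were 16.5% above and 15.2% below. The signals of the 36 genes summed to 131900 and 143600 in the day 56 samples and to between 91810 and 115300 in the 4 samples of days 30 and 35. The median was 0.34 without day 56 sample 1 and 0.42 without day 56 sample 2, but 0.14 after quantile normalization.

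Tnp1, the transition protein that takes the place of histones before the protamines, had 9279 and 6722 at day 56, against 3726 and 4019 at day 30 and 4457 and 4632 at day 35. The lower day 56 sample exceeded the highest of the others, and the difference was 0.91 ± 0.27 (adjusted p = 0.178 in limma, and 0.0149 with 6 arrays, though under 2-fold). Oaz3, the germ cell form of ornithine decarboxylase antizyme, had 7010 and 5456 at day 56, against 2480 and 2481 at day 30 and 3704 and 4271 at day 35 (0.97 ± 0.36, adjusted p = 0.303). The mean signal of Oaz3 was 40.8 at day 20. Tnp2 had 14970 and 13020 at day 56, against 8574 and 10240 at day 30 and 9765 and 11600 at day 35. Prm1, the protamine that compacts sperm DNA, had 16480 and 15880 at day 56, against 10500 and 12620 at day 30 and 12020 and 12430 at day 35. The 6 Prm1 samples did not overlap between the groups, yet the difference was 0.45 ± 1.05, since the spread shared with the other ages was wide for this gene.

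Other genes of the list went both ways. Odf1, of the outer dense fibres, had 6559 and 6617 at day 56, against 4079 and 4352 at day 30 and 5383 and 6342 at day 35. Akap4, which builds much of the fibrous sheath, had 2086 and 2384 at day 56, against 1757 and 1446 at day 30 and 2138 and 2488 at day 35, so that its day 56 samples lay within the range of the others. Smcp, of the mitochondrial capsule, overlapped likewise (0.40 ± 0.41). Gapdhs, the sperm form of glyceraldehyde-3-phosphate dehydrogenase, had 8928 and 7208 at day 56, against 3944 and 4748 at day 30 and 5263 and 6009 at day 35. Its difference was 0.70 ± 0.29, and a dimmer probe set for the same gene went the other way (-0.98 ± 0.28). Ggn, which encodes gametogenetin, was lower, with 200 and 315 at day 56, against 636 and 449 at day 30 and 581 and 724 at day 35 (-1.18 ± 0.47, and adjusted p = 0.0252 in the fit of the 6 arrays).

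Round spermatid and spermatocyte genes were spread on both sides of 0. Of 31 round spermatid genes 0 passed with 22 arrays and 1, Kif17, with 6, as lower (against 0.935% of all genes). The median difference was 0.17. At an unadjusted p under 0.05 there was 1 higher and 1 lower (3.23% each way, against 5.06% and 6.29% of all genes). Kif17, the kinesin that carries a coactivator of CREM out of the spermatid nucleus in mice, had 521 and 667 at day 56, against 1775 and 1108 at day 30 and 2521 and 1706 at day 35. The difference was -1.51 ± 0.39 (adjusted p = 0.131 with 22 arrays and 0.0144 with 6). Catsper2, of the sperm calcium channel, had 2931 and 2757 at day 56, against 1632 and 1359 at day 30 and 1634 and 1473 at day 35 (0.90 ± 0.44). Pcsk4, an acrosomal proprotein convertase, was at -0.76 ± 0.40 and the transcription factor gene Rfx2 at -0.73 ± 0.39.

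Of 31 pachytene and diplotene genes 0 passed with 22 arrays and 2 with 6, both lower (against 0.935% of all genes). Ybx2, a germ cell protein that binds and stores mRNA, had 1796 and 2138 at day 56, against 3637 and 4002 at day 30 and 4253 and 4348 at day 35. Its difference was -1.04 ± 0.41 (adjusted p = 0.333 with 22 arrays and 0.00478 with 6). Tesk1, a testis kinase that phosphorylates cofilin, had 979 and 1141 at day 56, against 2068 and 2173 at day 30 and 2540 and 3166 at day 35 (-1.20 ± 0.41, adjusted p = 0.254 with 22 arrays and 0.00409 with 6). The list as a whole had a median of 0.05, with 2 members higher and 2 lower at an unadjusted p under 0.05. That is 6.45% each way, near the 5.06% and 6.29% of all genes. Fabp9, a testis protein that binds fatty acids, was at 0.75 ± 0.53 with 9516 and 8897 at day 56, against 5278 and 4822 at day 30 and 6269 and 5527 at day 35. Ldhc and Hspa2, the lactate dehydrogenase and the HSP70 chaperone of meiotic cells, were at 0.26 ± 0.64 and 0.22 ± 0.25.

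The 14 early meiotic genes had a median of 0.33, with 0 passed in either fit. At an unadjusted p under 0.05, 3 were higher (21.4%, against 5.06% of all genes) and 1 lower (7.14%, against 6.29%). Spo11, which cuts DNA to start recombination, had 2855 and 2523 at day 56, against 2053 and 1787 at day 30 and 1644 and 1630 at day 35 (0.60 ± 0.26). The median was 0.16 without day 56 sample 1. Of 15 genes of differentiating spermatogonia 10 were below 0, with a median of -0.25, 0 passed and 0 at an unadjusted p under 0.05. Dmrtb1, a transcription factor that times entry into meiosis, had 1988 and 2418 at day 56, against 2750 and 3040 at day 30 and 3141 and 3462 at day 35 (-0.49 ± 0.38). Kit and Stra8 overlapped between the groups. The 14 genes of undifferentiated spermatogonia had a median of 0.08, which was below 0 under some alternatives, with 0 at an unadjusted p under 0.05.

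**Figure D4:**
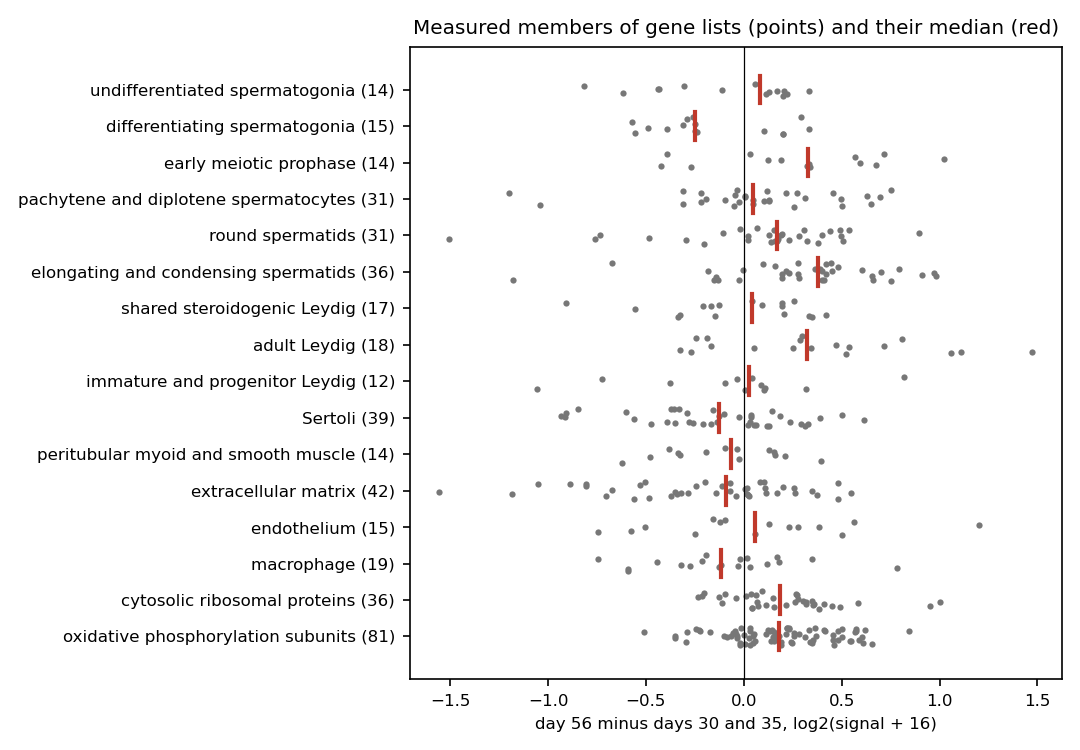
Difference of day 56 from days 30 and 35 on the log2(signal + 16) scale (horizontal axis) for the measured members of 16 gene lists, with the number measured in parentheses. Each point is a gene and the red bar is the list's median, which is 0.38 for elongating and condensing spermatids, 0.32 for adult Leydig genes and -0.25 for differentiating spermatogonia.

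Some genes of adult Leydig cells had higher signals at day 56, while no gene of the shared steroid synthesis list passed in either fit. Of 18 measured adult Leydig genes 0 passed with 22 arrays and 2 with 6, Klk1b22 and Klk1b24. Both were higher, against 0.401% of all genes that passed as higher with 6 arrays. The median difference was 0.32. Both day 56 samples lay above all others in 8 genes and below in 1, against 16.5% and 15.2% of all genes. At an unadjusted p under 0.05 there were 4 higher (22.2%, against 5.06% of all genes) and 0 lower (against 6.29%). The list holds Klk1b21, Klk1b22 and Klk1b24 as separate members. They are close copies, and the probe sets of Klk1b21 and Klk1b22 may detect other copies. These counts may therefore hold the same signal more than once. The median was 0.20 without day 56 sample 1 and 0.48 without day 56 sample 2.

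Klk1b22 and Klk1b24 are neighbouring members of the glandular kallikrein family on chromosome 7, serine proteases whose genes are close copies of each other. The 100 bases before their annotated starts (RefSeq, GRCm38.p6, plus strand) are shown for the likeness of the neighbouring genes. These bases lie before the transcript, so they do not show which copy a probe set detects. They are chr7:44112573-44112672 for Klk1b22 and chr7:44188136-44188235 for Klk1b24, both upstream of the gene and read 5′ to 3′, with capitals on the motif TTTAAA.
Klk1b22: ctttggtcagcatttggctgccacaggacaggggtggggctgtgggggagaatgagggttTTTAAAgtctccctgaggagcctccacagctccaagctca
Klk1b24: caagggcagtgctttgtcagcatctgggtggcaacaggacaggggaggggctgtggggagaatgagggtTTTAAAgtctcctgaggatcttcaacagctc
In a global alignment 82 of 111 columns were identical (73.9%), and the longest run of bases in common was 18. The motif TTTAAA, which reads the same on both strands, begins 40 bases before the start of Klk1b22 and 31 before that of Klk1b24, and occurs in the same 100-base window of 1443 of 32851 promoters (4.39%). A match is only a match of letters.

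Klk1b22 had signals of 846 and 739 at day 56, against 251 and 414 at day 30 and 421 and 431 at day 35. The difference was 1.06 ± 0.29 (adjusted p = 0.157 with 22 arrays and 0.0197 with 6). Its mean signal did not exceed 38.05 from day 0 to day 18 and was 77.0 at day 20, 333 at day 30, 426 at day 35 and 793 at day 56. Klk1b24 had 119 and 98.3 at day 56, against 29.2 and 30.8 at day 30 and 26.5 and 28.6 at day 35 (1.47 ± 0.51, adjusted p = 0.256 with 22 arrays and 0.0316 with 6). Unlike Klk1b22, its mean signal at days 30 and 35 (30 and 27.6) was no higher than at day 20 (58.4). Klk1b21, a further member, had 1177 and 999 at day 56, against 419.5 and 773 at day 30 and 561 and 772 at day 35 (0.81 ± 0.49). The probe sets used for Klk1b21 and Klk1b22 carry the suffix that marks probe sets shared by a gene family, so which of the copies gave the signal is uncertain.

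Bhmt, which methylates homocysteine, had 496 and 293 at day 56, against 108 and 228 at day 30 and 189.8 and 170.5 at day 35. The difference was 1.11 ± 0.32 (adjusted p = 0.175), and a second, dim probe set gave -0.05 ± 0.40. Hsd17b3, which makes testosterone from androstenedione, had 140 and 127 at day 56, against 101 and 119 at day 30 and 84.4 and 69.5 at day 35 (0.47 ± 0.29, adjusted p = 0.571). The day 56 samples were the highest for this enzyme, and the difference did not pass in either fit.

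The list of steroid synthesis genes that fetal and adult Leydig cells share was near 0. Of 17 measured genes 0 passed in either fit, the median difference was 0.04, and its sign changed when 1 sample was left out. The signals of the 17 summed to 4952 and 5279 at day 56 and to between 4962 and 6089 at days 30 and 35. Cyp17a1, which stands in both Leydig lists, as Insl3 does, is the enzyme that turns progestins into androgens. It had 686 and 853 at day 56, against 736 and 1344 at day 30 and 883 and 983 at day 35 (-0.33 ± 0.27, 95% interval -0.89 to 0.24). Cyp11a1, which makes pregnenolone from cholesterol, was at -0.21 ± 0.26, Star, which brings cholesterol into mitochondria, at 0.26 ± 0.45 and Insl3, the hormone of testicular descent, at -0.17 ± 0.28. The groups overlapped for these genes, and for Hsd3b6 of the adult list (-0.24 ± 0.30). Hsd3b1 had 168 and 157 at day 56, against 133 and 112 at day 30 and 101 and 127 at day 35 (0.42 ± 0.33), and a dimmer probe set gave -0.14 ± 0.22. Nr5a1, the nuclear receptor that drives these genes, was at -0.55 ± 0.22 with both day 56 samples below the others.

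Of 12 genes of immature and progenitor Leydig cells 0 passed with 22 arrays and 1, Nes, with 6, as lower (against 0.935% of all genes). Nes, the intermediate filament protein nestin of Leydig progenitors, had 20.8 and 13.6 at day 56, against 44.9 and 42.1 at day 30 and 61.2 and 65.1 at day 35. The difference was -1.06 ± 0.23 (adjusted p = 0.0871 with 22 arrays and 0.0266 with 6). Akr1c13, an aldo-keto reductase, stood on the other side with 171 and 123 at day 56, against 82.6 and 78.7 at day 30 and 70.1 and 70.8 at day 35 (0.82 ± 0.31). Lhcgr and Srd5a1 were not analysed here.

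The signals of type I collagen and elastin genes were lower at day 56. Of 42 measured extracellular matrix genes 0 passed with 22 arrays and 3 with 6, Col1a1, Col1a2 and Eln. All 3 were lower, against 0.935% of all genes that passed as lower with 6 arrays. The median of the list was -0.09. At an unadjusted p under 0.05 there were 8 lower (19%, against 6.29% of all genes) and 0 higher (against 5.06%). The signals of the 42 genes summed to 10120 and 11290 at day 56 and to between 12180 and 15370 at days 30 and 35. Without day 56 sample 1 the median was -0.12, and without day 56 sample 2 it was -0.09.

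Col1a2, a chain of type I collagen, had 92.2 and 135 at day 56, against 269 and 294 at day 30 and 208 and 349 at day 35. The difference was -1.19 ± 0.21 (adjusted p = 0.0515 with 22 arrays and 0.0245 with 6), and a second probe set gave -0.30 ± 0.23. The mean signal of Col1a2 was 3750 at day 0, 1957 at day 10, 514 at day 20, 281 at day 30, 279 at day 35 and 114 at day 56. Col1a1, its partner chain, had 162 and 182 at day 56, against 433 and 747 at day 30 and 332 and 759 at day 35. Its difference was -1.56 ± 0.60 (adjusted p = 0.320 with 22 arrays and 0.0326 with 6), and its second probe set gave -0.16 ± 0.28. Eln, which encodes elastin, had 148 and 169 at day 56, against 295 and 507 at day 30 and 254 and 368 at day 35 (-1.05 ± 0.29, adjusted p = 0.155 with 22 arrays and 0.0368 with 6). Col3a1 was at -0.89 ± 0.31, with day 56 sample 2 within the range of the others.

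**Figure D5:**
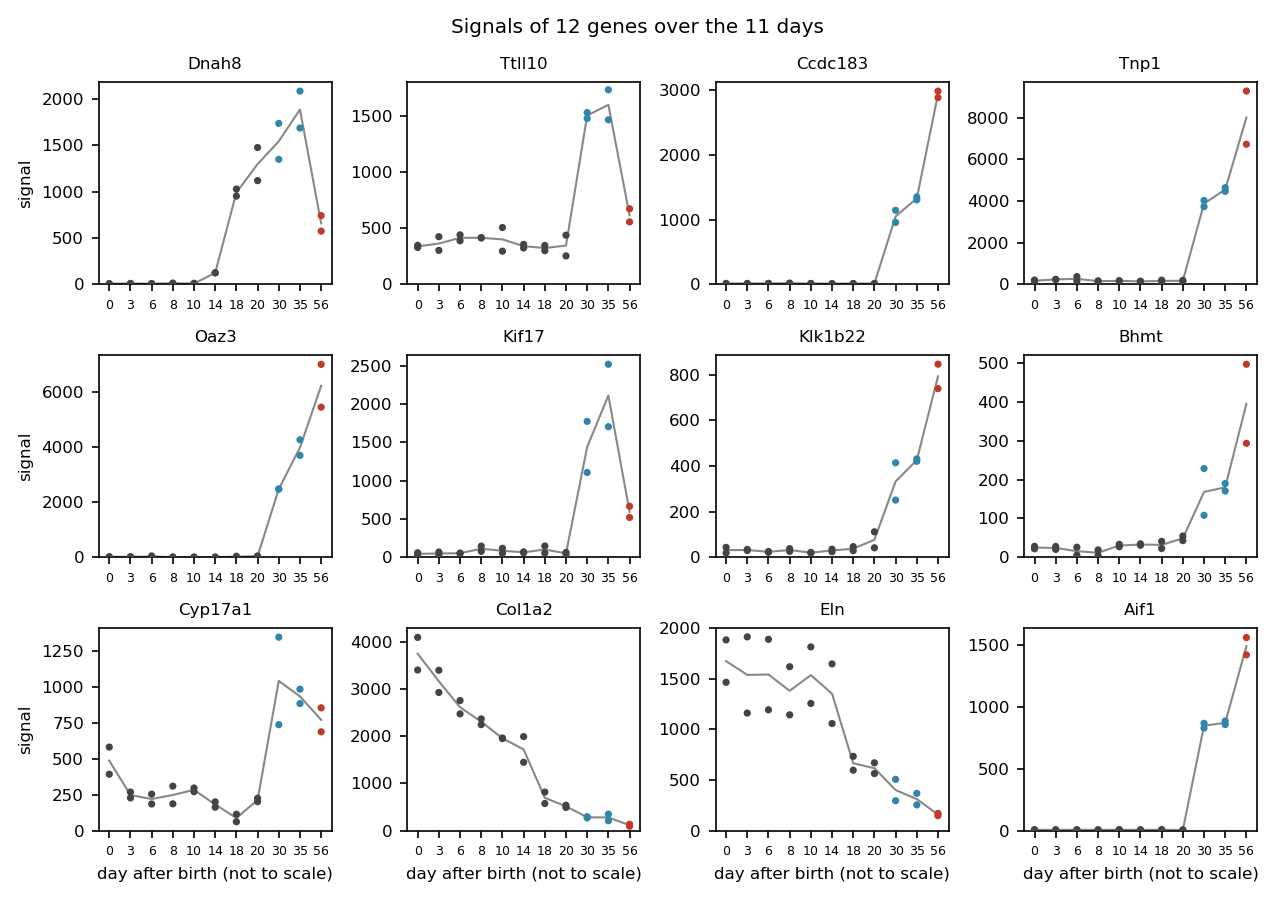
Signals (vertical axis, from 0) of 12 genes in both samples of each of the 11 days (horizontal axis, not to scale), with day 56 in red, days 30 and 35 in blue, earlier days in black and a grey line through the day means. Dnah8, Ttll10 and Kif17 are lower at day 56 than at day 35, Tnp1, Oaz3, Ccdc183, Klk1b22, Bhmt and Aif1 are highest at day 56, and Col1a2 and Eln are lowest there.

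Sertoli cell genes differed little as a group. Of 39 measured genes 0 passed in either fit and the median was -0.13. At an unadjusted p under 0.05 there were 5 lower (12.8%, against 6.29% of all genes) and 1 higher (2.56%, against 5.06%). The signals summed to 15210 and 15450 at day 56 and to between 14480 and 16230 at days 30 and 35. Gata4, a transcription factor of Sertoli and Leydig cells, had 104 and 89.6 at day 56, against 175 and 197 at day 30 and 205 and 208 at day 35 (-0.91 ± 0.37), and a second probe set gave -0.08 ± 0.30. Inhbb, the beta B subunit of inhibin and activin, had 10.7 and 21.6 at day 56, against 42.3 and 51.7 at day 30 and 46.3 and 35.4 at day 35. Cldn11, the claudin of the tight junctions between Sertoli cells, had 155 and 204 at day 56, against 255 and 280 at day 30 and 262 and 219 at day 35 (-0.47 ± 0.21). Sox9, Clu, Trf and Fshr overlapped between the groups, with differences between -0.29 and -0.03.

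Among the other somatic lists, 14 genes of peritubular myoid and smooth muscle had a median of -0.07 with 0 passed in either fit. Myh11, smooth muscle myosin, had 61.7 and 79.8 at day 56, against 83.3 and 119 at day 30 and 118 and 158 at day 35 (-0.62 ± 0.21), and its second probe set gave 0.16 ± 0.26. Acta2, smooth muscle actin, was at -0.04 ± 0.32. The 15 endothelial genes had a median of 0.06, with 8 above 0 and 7 below. Pecam1 was the 1 that passed with 6 arrays, as higher (against 0.401% of all genes). Vwf, the von Willebrand factor, was at 0.38 ± 0.25. Eng, at -0.745 ± 0.367, and Ets1, at -0.57 ± 0.30, went the other way, and their other probe sets gave smaller differences. Of 6 erythroid genes, Klf1 passed with 6 arrays, as higher (against 0.401% of all genes). In contrast, Hba-a1, an alpha globin, was at -0.37 ± 0.32. Its signals were 572 and 425 at day 56, against 727 and 596 at day 30 and 519 and 756 at day 35. The 19 macrophage genes had a median of -0.12, which was -0.026 without day 56 sample 1 and -0.21 without day 56 sample 2. Their signals summed to 3129 and 3216 at day 56 and to between 2742 and 2862 at days 30 and 35.

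Aif1 made up a large share of that sum and had another course than the rest of the list. Aif1, an actin-binding protein known from macrophages, had 1563 and 1423 at day 56, against 868 and 829.6 at day 30 and 888 and 859 at day 35. The difference was 0.78 ± 0.18 (adjusted p = 0.103 with 22 arrays and 0.00738 with 6, though under 2-fold). Its mean signal did not exceed 6.85 from day 0 to day 20. The receptor gene Csf1r, which defines the lineage, was at -0.12 ± 0.18, and C1qc, a complement subunit of macrophages, at -0.59 ± 0.25 with 122 and 97.5 at day 56, against 154 and 160 at day 30 and 185 and 196 at day 35. Dimmer probe sets gave 0.17 ± 0.20 for Csf1r and -0.11 ± 0.34 for C1qc.

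Genes of the respiratory chain and of the ribosome were slightly higher at day 56 on balance. The oxidative phosphorylation list was drawn by gene symbol (Nduf, Uqcr, Cox and Atp5), so it also takes in assembly factors such as Ndufaf2. Of its 81 genes 0 passed in either fit, the median was 0.18, and 61 were above 0. In 35 of them both day 56 samples lay above all others and in 3 below, against 16.5% and 15.2% of all genes. At an unadjusted p under 0.05 there were 9 higher (11.1%, against 5.06% of all genes) and 0 lower (against 6.29%). Cox7a2, of cytochrome oxidase, had 3172 and 3134 at day 56, against 1978 and 1992 at day 30 and 1796 and 2242 at day 35 (0.66 ± 0.22). Atp5md, of ATP synthase, had 935 and 898 at day 56, against 502 and 534 at day 30 and 519.6 and 462 at day 35. The 36 cytosolic ribosomal protein genes also had a median of 0.18, which was 0.10 without day 56 sample 1 and 0.077 after quantile normalization. Of these, 4 were higher (11.1%, against 5.06% of all genes) and 0 lower (against 6.29%) at an unadjusted p under 0.05. Rps20 had 16200 and 15730 at day 56, against 10550 and 9710 at day 30 and 11500 and 10880 at day 35 (0.58 ± 0.19).

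Markers of tissues that could adhere to a dissected testis gave a mixed picture. Retn, the adipocyte hormone resistin, had 309 and 173 at day 56, against 30.3 and 30.8 at day 30 and 93.0 and 64.4 at day 35. The difference was 1.91 ± 0.50 (adjusted p = 0.131 with 22 arrays and 0.0136 with 6). Adipoq, which encodes adiponectin, was at 0.52 ± 0.26 with 201 and 216 at day 56, against 139 and 137 at day 30 and 149 and 138 at day 35. The 9 measured adipocyte genes had a median of -0.02, and their signals summed to 942 and 1400 at day 56 and to between 766 and 1077 at days 30 and 35. The 9 measured skeletal muscle genes had a median of -0.15. Of the epididymis list 1 gene was measured, Spink2 (-0.09 ± 0.30). Its signal was 2156 and 2232 at day 56 and between 1828 and 4293 at days 30 and 35. A gene this bright in every whole-testis sample cannot mark adhering epididymis, so that tissue was left without a usable marker. Whether such tissue adds to the differences was not tested.

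The other lists had 0 or 1 member that passed, with 6 arrays only. In that fit 0.401% of all genes passed as higher and 0.935% as lower. The 23 immediate-early genes had a median of 0.06. At an unadjusted p under 0.05, 4 were higher (17.4%, against 5.06% of all genes) and 1 lower (4.35%, against 6.29%). Zfp36, which marks mRNAs for decay, passed with 6 arrays (1.21 ± 0.42, with 87.1 and 59.5 at day 56, against 25 and 18.7 at day 30 and 22.7 and 22.4 at day 35). The medians were -0.03 for 29 mitotic cell cycle genes, 0.13 for 20 imprinted and fetal growth genes, 0.09 for 21 genes of cholesterol synthesis and 0.05 for 17 germ cell metabolic isozymes. They were 0.05 for 19 heat shock genes, 0.07 for 33 genes of detoxification, -0.05 for 16 genes of MHC class I and the interferon response and -0.34 for 5 lymphocyte genes, all with 0 passed in either fit. Several of these medians rested on 1 sample. Without day 56 sample 1 the imprinted median was 0.014 and the immediate-early median -0.063, and without day 56 sample 2 the lymphocyte median was -0.076.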

How the data were processed

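The deposited values are signal intensities on a linear scale, 1 per probe set and array, which the authors scaled to a mean signal of 125, per the labels; without 2% of probe sets at each end the mean was 125.0 to 125.1 on the 18 arrays used. The labels give TRIzol for the RNA; the signal software and detection calls are not given in the sources used here, so the number of arrays and the signal level limit the precision.

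Of 36899 probe sets, 29131 named 1 gene (724 several, 6846 none, 198 controls), and 29044 of these matched a RefSeq gene (GRCm38.p6). Signals were analysed as log2(signal + 16) with limma 3.58.1 in R 4.3.3, per array type, fitting a mean for each of the 11 days (lmFit) and moderating variances along a trend with signal (eBayes). The test was two-sided and adjusted over 13472 genes of all types. The script was tested on simulated data. The named genes are the 15 per direction of at least 2-fold whose groups did not overlap (called genes first, then by p, without clone-only names), up to 4 members of each of 29 lists with the largest difference, and textbook genes of the testis. Members, lists and rules were chosen with earlier results of these data known. Alternatives changed the pseudocount, filter, scaling, choice of probe set, arrays in the fit, eBayes settings, block on sample number and samples left out.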

Additional observations from a re-analysis of the deposited data

Results flagged for a closer look

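Among the 4 samples of days 30 and 35, 1 sample lay far from the other 3 in 5 of the 30 named genes, by Dixon's test on the log2 scale; chance flags about 1 in 20 such groups. The gap over the range was 0.842 for Fermt2 (day 30 sample 2), 0.879 for Cmya5 (day 35 sample 1), 0.851 for Prss8 (day 35 sample 2), 0.837 for Ccnb1ip1 (day 30 sample 2) and 0.891 for Ncapd2 (day 35 sample 2). For Fermt2 that sample had a signal of 40.8, against 12.1 to 15.4 in the other 3. For Ncapd2 the gap was small in size, with 209 against 222 to 224 in the other 3.

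The antisense-strand control probe sets for actin and Gapdh, which are in no comparison of genes, had a higher mean signal at day 56 than at days 30 and 35, with a ratio of 1.835 on array type A (6 of 6 probe sets with both day 56 arrays above all 4 others), 1.79 on type B (3 of 6) and 1.72 on type C (4 of 6). The part of this background in the differences between genes was not tested.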

How the results depend on the processing

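The count of 1 gene from limma's fit of 22 arrays moved with nearly every choice. It was 14 with a pseudocount of 1, 16 with 64, 36 with a floor of 32, 8 with no signal filter, 4 with quantile normalization, 3 with median scaling, 14 with the mean probe set per gene, 6 over every probe set and 13 without suffixed probe sets. It was 180 with 6 arrays as 3 day means, 188 with days 30 and 35 as 1 group, 0 with 12 arrays (1546 at an unadjusted p under 0.05), 33 with days 0 and 20 left out, 6 with no variance trend and 26 with sample number as a random block. It remained 1 with a filter of 125, with robust eBayes and without the 2-fold rule. With the replicate block it was 84; the labels do not say that a number pairs samples, and the deviations of same-numbered samples at days 30, 35 and 56 correlated at 0.0002 to 0.166. Over all 55 pairs of days, which set the spread of the 22-array fit, 28 on type A, 34 on B and 23 on C exceeded 0.1, up to 0.547, 0.388 and 0.292. The main fit takes no account of such shared deviations, as the labels do not pair the samples. A shared source of same-numbered samples was not tested. Leaving out 1 sample gave 0 to 26 genes. It gave 0 without day 30 sample 1, day 35 sample 1 or day 35 sample 2, 2 when day 56 sample 1 was left out and 26 when sample 2 of that day was. Dnah8 passed in 15 of 23 alternatives, with differences from -1.54 to -0.99 and adjusted p from 0.00197 to 0.196. The medians of the elongating spermatid list (0.14 to 0.42), the adult Leydig list (0.20 to 0.48) and the matrix list (-0.13 to -0.02) kept their sign over 8 alternatives, and that of the shared Leydig list did so in 4. Other medians ranged from 0.094 to 0.26 (round spermatids), 0.011 to 0.10 (pachytene), -0.16 to -0.060 (Sertoli), -0.16 to -0.0076 (myoid), -0.096 to 0.22 (endothelium), -0.25 to 0.26 (erythroid) and -0.11 to 0.19 (adipocyte). The cause of these shifts was not tested, beyond the fewer arrays or genes that a setting holds. With 2 arrays a day and a median SE of 0.284, small differences could not be resolved.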
